A study of Mus musculus with 4 samples.

Results

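Gm and Rik symbols are the placeholder names of the mouse genome. Gm followed by a number marks a gene model predicted by computation or manual annotation, and a name ending in Rik marks a gene first seen as a RIKEN cDNA clone. In a list of C-to-U editing sites of young mouse cortex, 360 of the 4206 gene symbols carried such a name, 252 of them Gm symbols and 108 Rik symbols. They held 943 of the 28412 listed sites, 518 under Gm and 425 under Rik symbols, which was 8.56% of the symbols and 3.32% of the sites. Members were chosen by the symbol alone. Gm37376, Gm20721 and C230004F18Rik were left out by the rule, and those of the 3 that were listed held 49 sites.

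Dissociated cortex was profiled by scDART-seq, whose tool is the deaminase APOBEC1 joined to a YTH domain that binds m6A. The 4 samples were sublibraries 1 to 4 of 1 cell pool. Cells carrying APOBEC1-YTH and cells carrying APOBEC1-YTHmut, the fusion with a mutated YTH domain, were in that pool together, as were replicates 1 and 2. All mice received tamoxifen at 20 mg/kg at intervals of 24 h over 5 days, starting at 6 to 8 weeks of age, and cortex was taken 7 days after the last dose. No label names the promoter or Cre behind the fusion. The site list has no sample, genotype or cell-type column. Values below therefore compare sites and symbols within 1 list, with no replicates and no test, and the read depth is unknown. Each site has a whole number, called the site count here, which ranged upward from 3. No header or label says what it counts. Intervals are 95% exact intervals and cover counting error only, and sites of 1 gene are not independent.

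N6-methyladenosine (m6A) is a common modification inside mRNAs and long noncoding RNAs, laid down mostly at an A followed by C. APOBEC1 carried to such an A by the YTH domain turns the neighbouring C into U, and sequencing reads a T. Many genes with placeholder names are long noncoding RNAs, antisense transcripts, read-through transcripts that join neighbouring genes, or unspliced models. The annotation class TEC, for models still awaiting experimental proof, holds single-exon models that rest on cDNA evidence and lie often within introns of larger genes.

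For the members whose top site had the highest counts and an annotated sequence, that top site is shown first, because several of these sites recur at other loci. Other sites of these members, some with higher counts than those printed, are not shown. Each line gives the edited base with up to 14 bases on either side, 5′ to 3′ on the strand of the transcript, from the GENCODE M21 transcripts (mm10). Capitals mark the 5-base context, in which the edited C is the 4th letter. The first window is the top site of 2900097C17Rik (chr2:156392252, minus strand, site count 332), and the second is the top site of Gm7292 (chr6:117717003, plus strand, 195). The next are those of Gm23935 (chr16:11144170, plus strand, 215), Gm27000 (chrX:88759775, minus strand, 174) and Gm24447 (chr15:93234512, plus strand, 161).
2900097C17Rik: atctggacgtcTAACTgtagagattgccg
Gm7292: aaagctgctctCAACCtttcccccgaccc
Gm23935: ttcgtcttgggAAACGgggtgcggcc
Gm27000: gtcgtcccttgTGACTgatcatgctgtcc
Gm24447: tcggtcgaagaGGACGaccttccccgaat

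Most members were listed by a single site. Exactly 1 site was listed for 204 of the 360 members, 56.7% (51.4 to 61.9), against 35.0% (33.5 to 36.6) of the 3846 other symbols and 36.9% of all listed symbols. The median was 1 site per member and 2 sites per other symbol. At the upper end, 13 members had 10 or more sites, 3.61% (1.94 to 6.10), against 18.1% (16.9 to 19.4) of other symbols and 16.9% of all listed symbols. For 97 members the whole evidence was 1 site at the lowest count of 3. That number was not set beside one for other symbols. The share of single-site symbols was higher and that of symbols with 10 or more sites lower among members than among other symbols, and neither pair of intervals overlapped.

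**Figure D1:**
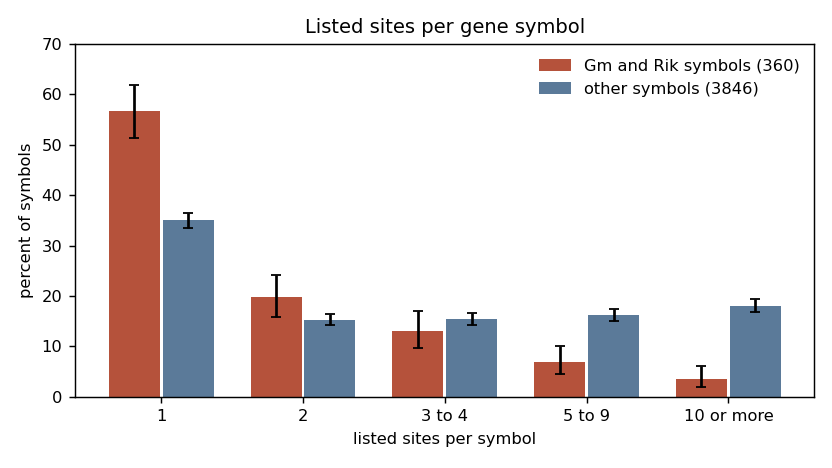
Percent of symbols by their number of listed sites, for the 360 Gm and Rik symbols and the 3846 other symbols; bars start at 0 and whiskers are 95% exact binomial intervals. The bar for 1 site is 56.7% for Gm and Rik symbols and 35.0% for other symbols, and the bar for 10 or more sites is 3.61% and 18.1%.

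Exon length and gene type differed along with the site load. The median annotated exon length was 2679.5 bp over the 354 members matched to the annotation and 6341 bp over 3805 matched other symbols. Per kb of exon, members had a median of 0.626 sites (0.545 to 0.674), against 0.430 (0.411 to 0.458) for other symbols. Every listed symbol has at least 1 site, so for single-site symbols this value follows from the exon length alone. Only 65 members, 18.4%, were annotated as protein coding, against 98.8% of other symbols. Coding members had a median of 2 sites, as had coding other symbols. Noncoding members had a median of 1 site, against 2.5 (1 to 4) for the 46 noncoding other symbols. The part of length and gene type in the site load was not tested.

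By annotation class, TEC models were the most numerous, with 139 members and 250 sites, followed by 65 coding genes with 236 sites and 63 antisense genes with 120 sites. The 37 lincRNAs (long intergenic noncoding RNAs) held 210 sites, of which 81 were in a single one. A single annotated exon was the whole gene for 174 members, 49.2% of those matched. In all, 74.6% of matched member sites lay in noncoding exons, against 6.83% of matched sites of other symbols. Within coding members, 55.1% (48.5 to 61.5) of sites lay in the 3' UTR and 35.2% (29.1 to 41.6) in coding sequence. Among matched sites of all other symbols, coding or not, these shares were 64.1% (63.5 to 64.7) and 26.9% (26.3 to 27.4).

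Site counts were spread much alike in members and other symbols. The median site count was 4 in both, and 44.2% (41.0 to 47.5) of member sites were at the lowest count of 3, against 40.9% (40.4 to 41.5) of the other sites. Counts of 100 or more were reached by 19 member sites, 2.01% (1.22 to 3.13), against 1.99% (1.83 to 2.16) of other sites. Those 19 sites lay in 7 members, 1.94% (0.785 to 3.97) of members, against 3.72% (3.14 to 4.37) of other symbols and 3.57% of all listed symbols. The members were 2900097C17Rik, Gm7292, Gm23935, Gm27000, Gm24447, Gm47283 and Gm49677. All except Gm49677 had site windows that occur at another annotated locus, as described below, so some of these high counts are uncertain as to gene. The sites of count 804 in Gm47283 and 215 in Gm23935 had no full window for that search. In 2900097C17Rik, the windows of the sites of count 223, 159 and 106 were found at no other annotated locus. The highest member count was 804 and the highest count of other symbols 3538.

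The 12 members with the most sites held 269 sites, 28.5% of all member sites. 2900097C17Rik (ENSMUSG00000102869, chr2:156388065-156392979, minus strand), a single-exon lincRNA of 4915 bp, led with 81 sites, a median site count of 10 and a highest of 332. Gm7292 (ENSMUSG00000104222, chr6:117716342-117718868, plus strand), a single-exon lincRNA of 2527 bp, had 37 sites with a median of 8 and a highest of 195. These lincRNAs stood above every other member in number of sites. D430041D05Rik (chr2:104143073-104411013), a coding gene, followed with 28 sites, 24 of them in the 3' UTR, and its highest site count was 23.

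Among the rest of these 12, C030017B01Rik on chromosome 18, which had no match by symbol in the annotation, had 20 sites with a highest count of 28. Gm47283 on the Y chromosome had 19 of the 20 sites listed on that chromosome. Of its site counts, 804 was far above the second highest of 20. That site, at chrY:90793257, lay in an annotated intron and has no sequence context here. The coding genes 9330159F19Rik, B230219D22Rik and 1700025G04Rik had 12 sites each, with highest counts of 77, 16 and 11, and all 12 sites of 1700025G04Rik lay in its 3' UTR. 9330162G02Rik had 15 sites, and Gm27000, Gm24447 and the antisense gene A830036E02Rik had 11 each.

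**Figure D2:**
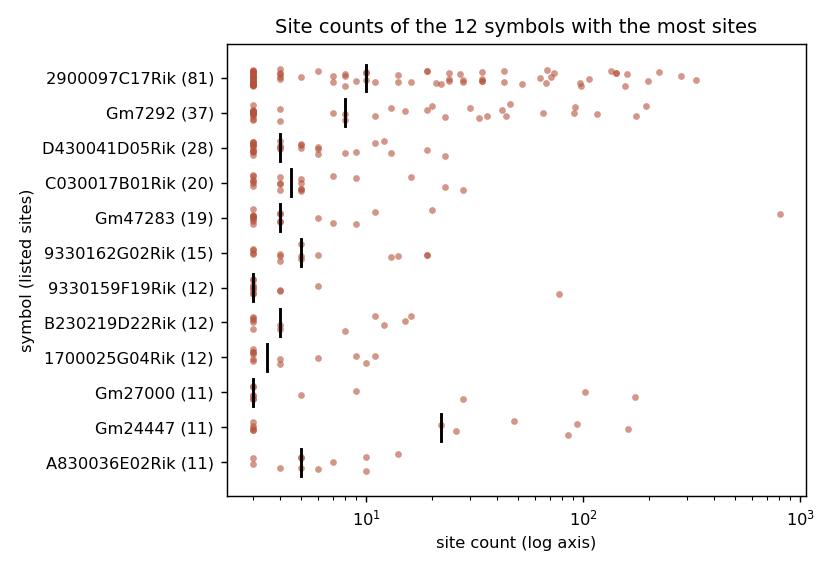
Site count of every listed site (points, log axis, jittered vertically) of the 12 Gm and Rik symbols with the most sites; the black line is the median of each symbol and the number of sites stands in brackets. 2900097C17Rik and Gm7292 have the most sites, and the 804 of Gm47283 stands alone at the right.

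Several of these leaders share sequence with another annotated locus. For each member site with a full 29-nt window, the same window was sought in all annotated transcripts. It occurred at another position for 159 of the 910 such sites, in 34 members, and in 16 members for every site. Sites of other symbols were not searched, so whether this share is particular to members is unknown. Reads that cover only such a window cannot be told apart by locus, so the counts at these sites are uncertain as to gene. Without those 159 sites, 7 members instead of 13 had 10 or more sites.

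All 37 windows of Gm7292 were present in 2900097C17Rik, and 47 of the 81 windows of 2900097C17Rik were present in Gm7292. Over the whole transcript, 86.8% of the 29-nt words of Gm7292 were also in 2900097C17Rik. The same window was listed at both loci 17 times. The count was higher in 2900097C17Rik at 11 of these, higher in Gm7292 at 5 and equal at 1. At the top site of 2900097C17Rik printed above, the count was 332 there and 30 in Gm7292. At the top site of Gm7292 printed above, it was 134 in 2900097C17Rik and 195 in Gm7292. The 5 windows at which Gm7292 was higher were the 5 nearest to the transcript start among the 17, with counts of 19 to 134 in 2900097C17Rik and 91 to 195 in Gm7292. At all later windows except the equal one, 2900097C17Rik was higher.

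**Figure D3:**
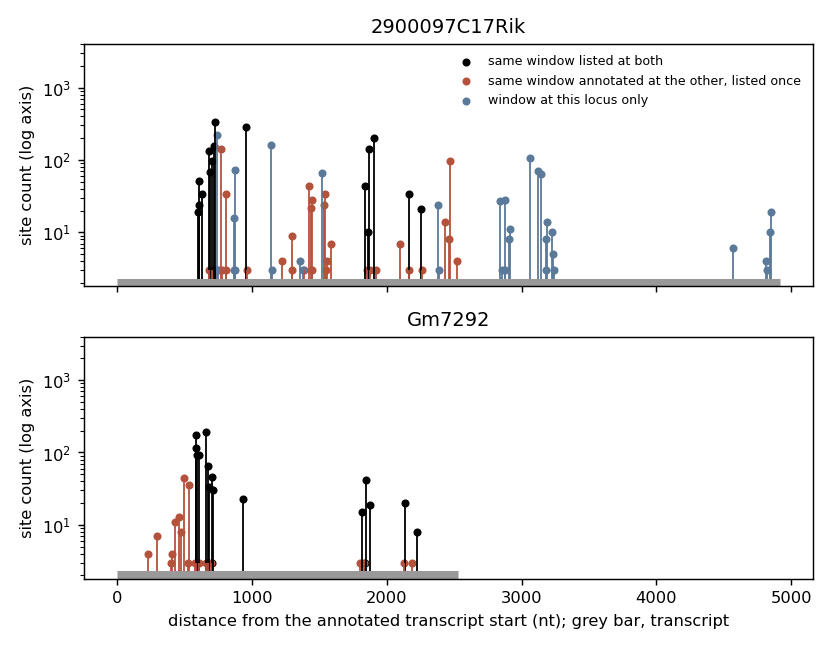
Site count (log axis) of each listed site along the annotated transcripts of 2900097C17Rik and Gm7292, by distance from the transcript start in nt; black marks windows listed at both loci, red those annotated at both but listed at 1, and blue those at 1 locus only. Gm7292 has no blue site, and its tallest site, 195, lies nearer to the transcript start than the tallest of 2900097C17Rik, 332.

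Gm27000 (chrX:88759471-88760312, minus strand) is a lincRNA model of 842 bp. All 11 of its windows were in Meg3, an imprinted long noncoding RNA abundant in neurons, and 96.4% of its 29-nt words were in Meg3. Of these windows, 5 were also listed under Meg3. At the printed window the count was 174 in Gm27000 and 106 in Meg3, and at the next highest it was 102 in Gm27000 and 137 in Meg3. At the others it was 28, 9 and 3 in Gm27000, against 28, 3 and 4 in Meg3, so neither locus was higher throughout.

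Gm24447 (chr15:93234363-93234700, plus strand), a small noncoding RNA model of 338 bp, had 10 of its 11 windows in Rn7sk, the 7SK RNA that holds the elongation factor P-TEFb inactive. Of these, 5 were listed at both loci, and the count was lower in Gm24447 at each. At the printed window it was 161 in Gm24447 and 329 in Rn7sk. At the remaining 4 it was 94, 85, 26 and 22 in Gm24447, against 140, 100, 50 and 45 in Rn7sk. Gm47283 has a full window at 18 of its 19 sites, and 16 of these windows were found in Gm21887 on the X chromosome, where 4 were listed under the symbol Erdr1.

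A recurring small model was seen in Gm23935, Gm24270 and Gm24187, which were looked at after their values were seen. Each is annotated as a microRNA gene of 57 bp, on chromosomes 16, 9 and 13. Each had its highest site at transcript position 46, in the window printed above for Gm23935, with site counts of 215, 90 and 61. At position 9, Gm23935 had a site of count 37 and Gm24270 one of count 6, and none was listed in Gm24187. The files give no further name for these models, and their reads cannot be told apart by this window.

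Bases next to the edited C were set beside those of other symbols. RAC means A or G, then A, then the edited C, and DRACH is the narrower form with no C in front of the RAC and no G behind it. All 517 member sites with a site count of 4 or more and a context lay in RAC, as did all 16157 such sites of other symbols. At the lowest count of 3, 210 of 413 did, 50.8% (45.9 to 55.8), against 45.7% (44.7 to 46.6) for other symbols. Of the 726 member sites in RAC, 73.8% (70.5 to 77.0) were DRACH, against 70.9% (70.3 to 71.5), and the intervals overlapped. The 203 member sites outside RAC lay often beside a stronger site: 51.2% (44.1 to 58.3) were within 10 nt of an RAC site of count 4 or more of the same symbol. For member RAC sites of count 3 that share was 12.9% (8.65 to 18.2). Among other symbols, the shares were 62.8% (61.5 to 64.0) outside RAC and 13.8% (12.8 to 14.7) in RAC.

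The context AAACA was the most frequent at count 4 or more. It made up 25.3% (21.6 to 29.3) of member sites, against 14.1% (13.5 to 14.6) for other symbols. Members also lay in more A-rich surroundings. At least 14 of the 28 bases around the site were A at 37.6% (34.4 to 40.8) of member sites, against 23.9% (23.4 to 24.4) of other sites. Within 200 nt of the annotated 3' end lay 15.0% of member sites, against 7.52% of other sites. Median annotated exon length was 2679.5 bp for members and 6341 bp for other symbols, so 200 nt is a larger part of it in members. The part of length in this difference was not tested. Another site of the same symbol lay within 10 nt for 40.3% (37.1 to 43.5) of member sites, against 48.5% (48.0 to 49.1) of other sites. A symbol with 1 site cannot have such a neighbour. These symbols held 204 of the 943 member sites and 1347 of the 27469 other sites, so this difference follows at least in part from the site load.

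The 354 matched members were then sorted by their position relative to named genes, meaning genes whose symbol is neither Gm nor Rik. Each member went to the first class it met. A site within an exon of a named gene on the same strand (shared exon) placed 17 members with 62 sites. A site within an exon on the opposite strand placed 71 members with 140 sites. A start within 10 kb past the end of a named gene on the same strand (downstream) placed 20 members with 32 sites. A start within 2 kb of that of a named gene on the other strand (head to head) placed 25 members with 42 sites. A site within the span of a named gene on the same strand but in none of its exons (intron) placed 118 members with 198 sites. None of these held for 103 members, which had 441 sites.

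**Figure D4:**
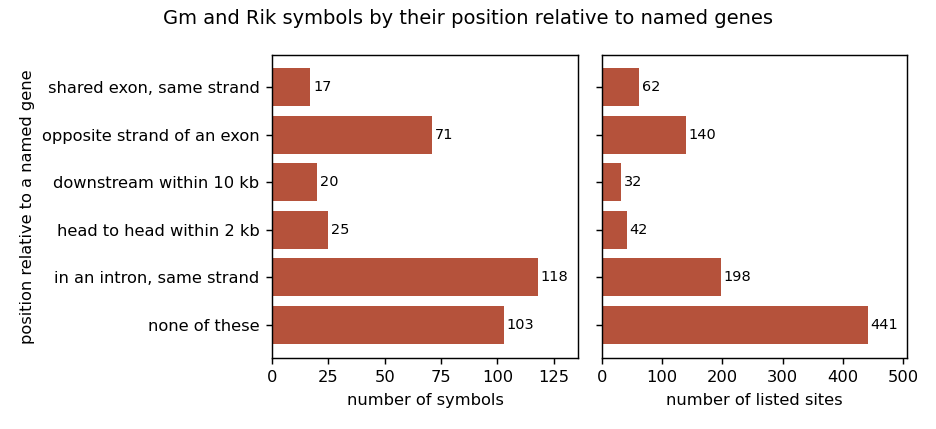
Number of Gm and Rik symbols (left) and of their listed sites (right) by position relative to a named gene, each symbol in the first class it meets; bars start at 0. The intron class has the most symbols, 118, and the class with none of the positions has the most sites, 441.

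Shared exons were found at 17 members, 4.80% (2.82 to 7.58), against 0.368% (0.201 to 0.617) of other symbols and 0.745% of all matched symbols. Of these, 16 were annotated as coding, and in 16 every site was shared. Gm38394 had 9 sites, of counts 3 to 31, all within the exon of Zbed6, a transcription factor encoded within the Zc3h11a gene. Zbed6 had no site listed under its own name, and Zc3h11a had 4. Gm20521 had 9 sites within Pabpn1, the nuclear poly(A)-binding protein, with a highest count of 14, and 4 further sites were listed under Pabpn1, with a highest count of 65. Gm45837 had 6 sites within Pde2a, a cyclic nucleotide phosphodiesterase, Gm21988 had 5 within Rnasek, and Gm42669 had 5 within Btbd8. Pde2a and Rnasek had no site of their own in the list, and Btbd8 had 4. The list therefore carries these exonic sites under the placeholder symbol in place of, or beside, the symbol of the named gene.

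On the opposite strand of a named gene's exon, 73 members had a site, 20.6% (16.5 to 25.2), against 3.63% (3.06 to 4.27) of other symbols and 5.07% of all matched symbols. Among the 73, 43 were annotated as antisense, a class named for its position opposite another gene. The share therefore follows in part from the annotation. Those 73 include members that also shared an exon. They had 130 sites inside such exons, 64 had a partner with a listed site, and 33 had a partner with 10 or more. For 37 of them a partner site lay within 100 bp of a member site. No label says whether the library keeps the strand of the RNA, and without strand, reads that carry no edit cannot be told apart. All 930 member sites with a context were a C on the strand of the member, which is a G on the opposite strand.

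Gm28221 (chr15:37367205-37368498, plus strand) had 7 sites, of counts 3 to 8, all within 100 bp of a site of Ncald, a neuronal calcium sensor. Ncald had 46 sites, with a highest count of 100. The window of the Gm28221 site of count 8 recurred at other annotated positions, among them a listed site of Slc7a11 with a count of 6. That count is therefore uncertain as to gene. 2900079G21Rik had 6 sites with a highest count of 16, all within 100 bp of sites of Arpp21, a neuronal phosphoprotein with 48 sites and a highest count of 298. Gm16105 had 5 sites with a highest count of 9 opposite Celf5, an RNA-binding protein with 43 sites and a highest count of 100. In these 3 pairs the placeholder gene had fewer sites and lower top counts than its partner. B230334C09Rik went the other way: it had 8 sites with a highest count of 28, 1 of them opposite an exon of Lrrc40, which had no listed site. Gm44560 had 6 sites with a highest count of 16, 3 of them opposite Ube3a, an imprinted ubiquitin ligase with 12 sites and a highest count of 8. Further pairs were picked after their values were seen. Gm14703 had 5 sites opposite Syp, the synaptic vesicle protein synaptophysin, with a highest count of 4 in Gm14703 and 37 in Syp. Gm37811 had 4 sites opposite C1ql3, a secreted synaptic protein, with highest counts of 21 in Gm37811 and 24 in C1ql3. Gm26918 had 3 sites opposite Pclo, a presynaptic scaffold, with a highest count of 3 in Gm26918 and 30 in Pclo. Gm26992 had 4 sites opposite Xist, the long noncoding RNA of X inactivation, with a highest count of 4 in Gm26992 and 258 in Xist. All 4 also lay within exons of Tsix, the antisense RNA of Xist, on their own strand, so Gm26992 was sorted into the shared-exon class, and Tsix had 3 listed sites. Of the 73 members, 14 had more listed sites than every partner. Among these are the 9 members with no listed site in any partner, for which this was fixed in advance.

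Over all member sites, 24 lay within 2 bp of a site listed on the other strand, 2.55% (1.64 to 3.76), against 80, or 0.291% (0.231 to 0.362), of other sites. Nearness was counted from both sides, so sites of other symbols that face these 24 are among the 80. All 24 were in the opposite-strand class, 7 of them at 1 bp and 17 at 2 bp. Within 100 bp, the share in that class was 52.9% (44.2 to 61.3), against 8.27% (6.59 to 10.2) of all member sites and 1.44% (1.30 to 1.59) of other sites. The class is defined by a site inside an exon on the other strand, so such nearness follows in part from the sorting. Of its sites at count 3, 35.7% (25.6 to 46.9) were RAC, against 50.8% for all members.

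Positions next to named genes were near or below the background. Downstream of a named gene lay 35 members, 9.89% (6.98 to 13.5), against 16.2% (15.0 to 17.4) of other symbols and 15.6% of all matched symbols. Head to head with a named gene lay 49 members, 13.8% (10.4 to 17.9), against 12.6% (11.6 to 13.7) of other symbols and 12.7% of all matched symbols. In the downstream class, Gm3764 had 6 sites, 3332 bp past AW047730, and Gm37899 had 3 sites, 7153 bp past Rian, an imprinted long noncoding RNA. 9930021J03Rik, past Ranbp6, had 3 sites with a highest count of 42. Gm12404, past Fam219aos, and 4933427D14Rik, past Med31, had 2 each. Among head-to-head members, 4930402H24Rik (beside Atrn), 4632427E13Rik (beside Rab30) and A830082K12Rik (beside Nr2f1) had 4 sites each, with highest counts of 41, 5 and 4. The window of the 41-count site of 4930402H24Rik recurred at 72 other annotated positions, 12 of them listed with counts of 3 to 103, so that count is uncertain as to gene. Gm9856, 246 bp from Tmem42, and Gm17494, 416 bp from Bcar3, had 2 each.

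Counted regardless of the other positions, 121 members had a site within the span of a named gene on the same strand and none in its exons, 34.2% (29.2 to 39.4). The share was 0.972% (0.686 to 1.34) of other symbols and 3.8% of all matched symbols. The intron class was made up largely of TEC models, 103 of its 118 members, and 12 more were annotated as sense intronic. They lay within 83 named genes, 56 of which had listed sites of their own and 13 of which held more than 1 member. Kcnip4, which encodes a protein that binds voltage-gated potassium channels, held the most: 14 TEC members with 36 sites on chromosome 5, while Kcnip4 itself had no listed site. Its members had 1 to 9 sites each. 2900064K03Rik led with 9 sites of counts 3 to 13, followed by Gm42771 with 4 sites of counts 3 to 9. The highest count was 41, in Gm43046, which was named after its values were seen. Ank2, which encodes the membrane scaffold ankyrin-B, held 5 members with 11 sites, beside 84 sites of its own. Gm43322 had 5 of those 11, with counts of 3, 4, 8, 21 and 7 in order of position. The window of its site of count 21 recurred at other annotated positions, with listed counts of 25 in Tmem245 and 3 in Abraxas2. That count is therefore uncertain as to gene.

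The next hosts by number of members were Adgrb3, Mir99ahg, Dlg2 and Lrrtm4. Adgrb3, an adhesion receptor, held 5 members with 9 sites beside 9 of its own. Mir99ahg, a noncoding microRNA host gene, held 4 members with 7 sites beside 5 of its own. Dlg2, a postsynaptic scaffold, held 3 members with 8 sites beside 8 of its own, and Lrrtm4, a synaptic adhesion protein, held 3 members with 6 sites beside 3 of its own. B930095G15Rik had 6 sites within Farp1, and 2900027M19Rik had 6 within Fam155a. An unspliced host transcript and a single-exon model within its intron cover the same bases on the same strand, so the list cannot tell them apart.

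Sites of the intron class lay in A-rich sequence. The median was 17 A bases of 28 (16 to 18), against 11 (10 to 11) for all member sites and 10 (10 to 10) for other symbols. The median A content of the transcripts of these sites, 29.5%, corresponds to 8.27 of 28 bases. At least 14 were A at 73.5% (66.5 to 79.7) of the 185 intron-class sites with a full window. The head-to-head class was close to it, with a median of 16 (13 to 18) and a share of 62.5% (45.8 to 77.3), and the intervals overlapped. The share was 45.2% (27.3 to 64.0) in the downstream class, 12.5% (7.45 to 19.3) in the opposite-strand class and 6.45% (1.79 to 15.7) in the shared-exon class. It was 30.8% (26.5 to 35.5) where none of the positions held. AAACA made up 41.3% (32.4 to 50.6) of the 121 intron-class sites with a context and a count of 4 or more. At count 3, 72.2% (60.4 to 82.1) of intron-class sites were RAC. The share was 78.4% (61.8 to 90.2) in the shared-exon class, 63.6% (40.7 to 82.8) in the head-to-head class and 53.8% (25.1 to 80.8) in the downstream class. It was 41.4% (34.0 to 49.1) where none of the positions held, and lowest, 35.7%, in the opposite-strand class. The part of base composition in the listing of these sites was not tested.

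**Figure D5:**
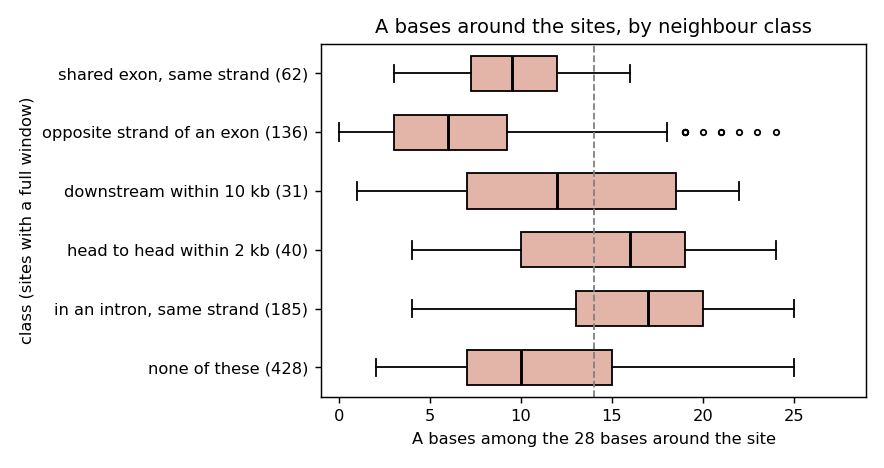
Number of A bases among the 28 bases around each Gm or Rik site, by position of the symbol relative to named genes; boxes span the quartiles, the black line is the median, whiskers reach 1.5 times the box and circles lie beyond. The dashed line marks 14; the median is 17 in the intron class, 16 in the head-to-head class and 6 in the opposite-strand class.

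A cluster of members lay on chromosome 7 between 59 and 62.5 Mb, a stretch that holds the imprinted Prader-Willi and Angelman genes. It was chosen after the values were seen. In it 12 members had 55 sites, all on the minus strand, which is the strand of Snrpn and of Snhg14, the long transcript that runs antisense to Ube3a. Snhg14 itself had 55 sites and Snrpn 4. On the plus strand, Ube3a had 12 sites and Ndn 7. 9330162G02Rik, a TEC model of 30942 bp, led with 15 sites of counts 3 to 19. The lincRNAs A230057D06Rik and B230209E15Rik had 7 sites each, Gm44560 had 6, and A230006K03Rik had 5. A330076H08Rik had 3 sites and the highest count of the cluster, 32. The other 6 had 1 to 3 sites each.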

How the data were processed

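The submitters' processing notes name STAR 2.7.5 and the mm10 build, and the series text names the Bullseye pipeline for the calling of C-to-U sites. The authors deposited 1 list with the position, strand, symbol and a whole-number count of each site. It was used as an unnormalized count. Filters, the use made of the mutant fusion and the read depth are, in the sources used here, not given. Sorted nuclei named in the series text were not analysed here.

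Sites were placed on GENCODE M21 by symbol, strand and exon. Of 360 members, 354 matched by symbol, and 6 with 28 sites did not. All 930 member sites with a context had a C there. Sequence came from annotated transcripts, so intronic sites have none. Shares have exact binomial and medians order-statistic intervals of 95% (Python 3.11.15, scipy 1.17.1, numpy 2.4.6). No test was run, because sites and genes of 1 list are not replicates. The classification and interval code was tested on simulated data.

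The members and lists were chosen with earlier results of these data known. Named members are the 12 with the most sites, those of the 10 sites with the highest count, and up to 5 per neighbour class with the most sites. The intron class was added after the data were seen, and so was the search for windows at other loci. Members named beyond this rule were picked with their values in view. Sites of chromosome 18 are shown without sequence.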

Additional observations from a re-analysis of the deposited data

How the results depend on the processing

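Of 72 recomputed values, 46 stayed within the interval of the main value (counts, within 1.5 times) and 26 moved; none changed sign, since none is signed. Keeping only site counts of 4 or more gave a single-site share of 68% in place of 56.7%, 6 members with 10 or more sites, a median site count of 7, 0.489 sites per kb, 23.6% of sites within 10 nt of another, 39 opposite-strand members and, as an alternative chosen after seeing the data, 98 sites with a window elsewhere. The share of RAC at count 3 could not be had at that setting. Merging sites within 10 nt gave a single-site share of 64.4% and 6 members with 10 or more sites. Rik symbols alone had a median of 2 sites, a single-site share of 49.1% and 8 members with 10 or more sites, and Gm symbols alone had 5 such members. Within 25 nt, 53.6% of sites had a neighbour. Using whole gene spans in place of exons gave 110 opposite-strand and 138 same-strand members. Downstream members numbered 22 at 5 kb and 71 at 25 kb. Counting only named genes with a listed site gave 7 shared-exon, 10 downstream, 23 head-to-head and 76 intron members. Also chosen after seeing the data were the removal of sites with a window elsewhere, windows of 21 nt, the exclusion of clone accessions as named genes, and the alternatives on the intron class and on opposite-strand sites within 100 bp. Removal left 7 members with 10 or more sites, and RAC at count 3 became 56.0% and DRACH within RAC 77.1%. Windows of 21 nt placed 59 members elsewhere. The cause of these shifts was not tested, apart from the smaller or wider sets the settings themselves define. No paired analysis was possible because no column of the list separates samples. The read depth is unknown, so the absence of a site in a gene says nothing of its RNA.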
